A study of Mus musculus with 6 samples.

Results

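Kinesins are motor proteins that walk along microtubules on energy from ATP, and the mouse genome codes for a large family of them. Some act mainly in dividing cells, where they build the spindle, move chromosomes and finish cytokinesis. Others carry vesicles, organelles and proteins along the axons and dendrites of neurons, which no longer divide. The genes described here were all those whose symbol in the deposited tables is Kif followed by a number and an optional letter, Kifc followed by a number, or Klc1 to Klc4, the light chains that link conventional kinesin to cargo. The rule found 44 genes of the 46517 in each table. By their known roles 13 were grouped as mitotic, 13 as axonal, 4 as light chains, 4 as motors of membrane traffic, 6 as ciliary, 1 (Kif2a) as acting in both spindles and neurites, and 3 as other. The axonal group is broad and also holds Kif17, a dendritic motor, and Kif5b, which is found in most tissues.

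RNA was sequenced from E14TG2a, a mouse embryonic stem cell line of wild-type genotype, at 3 stages of a neuronal differentiation, with 2 libraries per stage that the labels call biological replicates. The group mESC held stem cells with no treatment, kept on gelatin in medium with serum and LIF, a cytokine that maintains pluripotency. The groups NPC and NC were labelled with neuronal differentiation as treatment. NPC is the neuronal progenitor stage, and NC, which the labels do not spell out, was taken as the remaining stage of the design, terminally differentiated glutamatergic pyramidal neurons. All 6 samples come from a single line, and their cell type label reads embryonic stem cells throughout.

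Abundance is given in TPM, a share of all transcripts that is scaled to transcript length and library, so that levels can be compared between genes. Libraries held an estimated 1.57 to 2.27 Gb of aligned bases. A list of 8 pluripotency markers summed to 6055 to 6164 TPM in mESC and to at most 30.4 TPM in the later stages. A list of 10 neuronal markers summed to 266 to 327 TPM in mESC, 789 to 1135 TPM in NPC and 3983 to 4160 TPM in NC. Markers of neural progenitors were highest in NC, at 1850 to 2707 TPM over 8 genes, against 1539 to 1637 TPM in NPC. Markers of fibroblasts and smooth muscle (8 genes) stood at 873 to 1063 TPM in NC and at 35.7 to 124 TPM in the other stages, with Myh11 under 1 TPM in every library. Astrocyte markers (6 genes) summed to 78.2 to 135 TPM in NC and to 6.16 to 31.7 TPM before, with Aqp4, Gjb6 and S100b under 1 TPM in every library. The part of the cells behind these markers in the results below was not tested. In such bulk samples fewer cells of a type and less RNA per cell cannot be told apart.

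Stages were compared by limma on log2(TPM + 1), a scale that understates the change of genes of low abundance, and a gene was called where its p, adjusted by Benjamini-Hochberg over all 20232 tested genes, was under 0.05. Of the 44 members 37 had at least 1 TPM in all 6 libraries. A further 6 (Kif6, Kif12, Kif17, Kif19a, Kif26b and Kif27) were tested although they lay under 1 TPM in at least 1 library, and they passed the filter through the stages where they are high. Kif2b, a microtubule depolymerase, was at 0 in mESC and below 0.01 TPM in every other library, and was not tested.

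Within the family, spindle motors made up most of the transcripts in the stem cells and transport motors most of them in NC. Summed over the 13 mitotic kinesins, TPM came to 983 and 1014 in mESC, to 752 and 698 in NPC and to 303 and 367 in NC. Over the 13 axonal kinesins it came to 255 and 220 in mESC, to 620 and 729 in NPC and to 1541 and 1523 in NC. The stages did not overlap in either sum, and the order of the stages was opposite between them. The ratio of axonal to mitotic TPM was 0.259 and 0.217 in the mESC libraries, 0.825 and 1.04 in those of NPC and 5.08 and 4.15 in those of NC. Mitotic kinesins made up 60.2% and 65.5% of the family's TPM in mESC and 10.4% and 12.5% in NC, while axonal kinesins went from 15.6% and 14.2% to 52.8% and 52.0%. The most abundant members in mESC were Kifc1 (173 ± 29.7 TPM, mean ± SD, n = 2), Kif22 (173 ± 8.47) and Kif20a (145 ± 26.1), all mitotic. In NC they were Klc1 (618 ± 44.7), Kif5c (284 ± 2.24) and Kif1b (246 ± 6.44), and NPC had Klc1 (261 ± 31.1) above Kif22 (134 ± 10.6), Kif1b (110 ± 16.0) and Kif5c (107 ± 9.53).

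**Figure D1:**
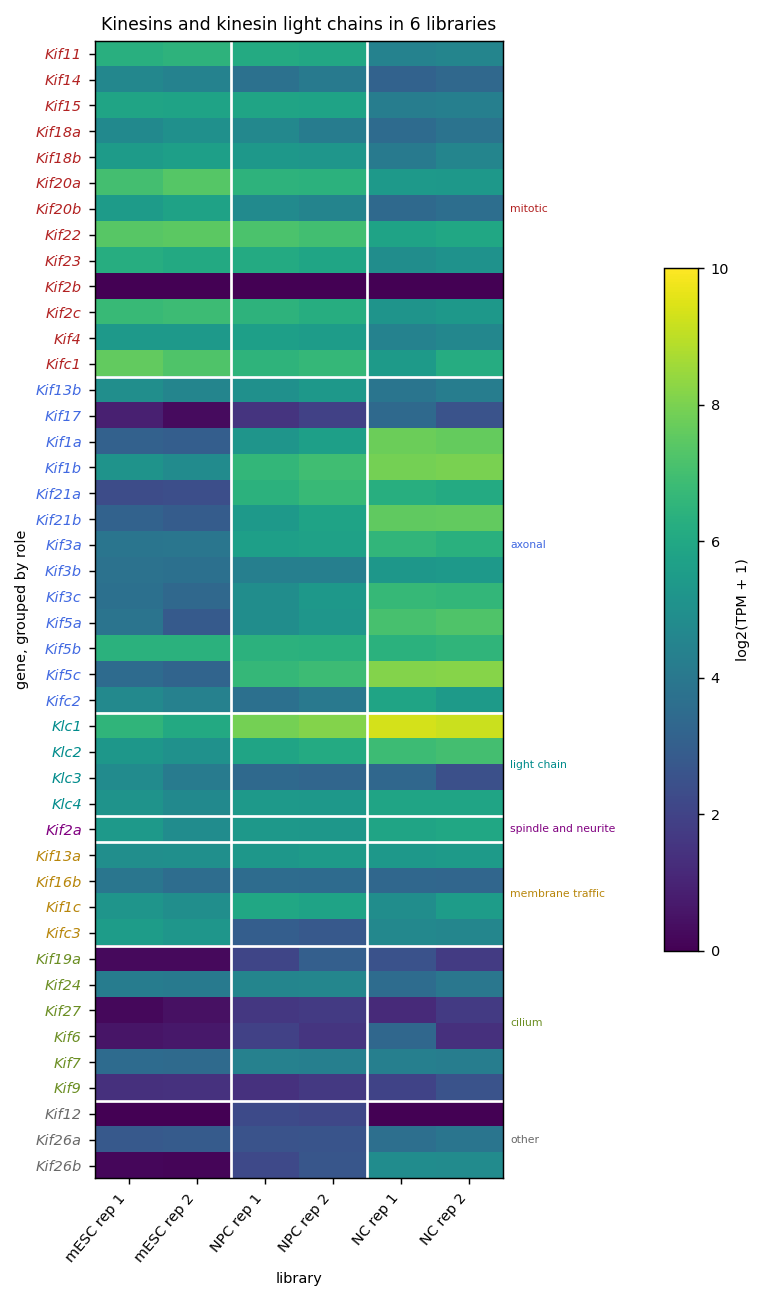
Colour gives log2(TPM + 1) of each of the 44 members (rows, grouped by role) in each of the 6 libraries (columns, 2 per stage). The mitotic block darkens from left to right while most axonal rows and Klc1 brighten, and Kif12 is above 0 in the NPC columns alone.

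Between mESC and NC the test called 59.9% of all tested genes, 37.8% higher and 22.1% lower in NC. Of the 43 members tested 23 were called higher and 15 lower. Among the 23 were Kif6, Kif17, Kif19a, Kif26b and Kif27, which lay under 1 TPM in both mESC libraries and passed the filter through later stages. A call of these genes against mESC could hardly be other than higher. All 12 mitotic kinesins tested were lower in NC, with a median log2 fold change of -1.55, against a median of 0.31 over all tested genes. Of the 13 axonal kinesins 11 were higher and 1 was lower, with a median of 2.97. Kif17, among the 11, lay under 1 TPM in both mESC libraries and passed the filter through later stages. The calls of the 12 mitotic kinesins held under each of 8 other settings of the analysis and without each library in turn. Those of the 11 axonal kinesins held under each other setting in which they were tested, and 10 of the 11 also without each library; the exception was Kifc2, with an adjusted p of 0.0559 without mESC replicate 2.

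In the early step, from mESC to NPC, 9 axonal kinesins were called higher and 3 mitotic kinesins lower, and in the later step, from NPC to NC, 9 of each. From mESC to NPC 40.0% of all tested genes were called, 26.0% higher and 14.0% lower, and of the members 17 were higher and 5 lower. The 17 include Kif12, Kif19a, Kif26b and Kif27, which passed the filter through later stages and could hardly be called other than higher. Of the mitotic kinesins 3 of 12 were lower in NPC (median -0.41), while 9 of 13 axonal kinesins were higher (median 1.75). From NPC to NC 25.3% of all genes were called, 15.2% higher and 10.1% lower, and of the members 14 were higher and 12 lower. Kif12, among the members lower, passed the filter through NPC alone. In this step 9 of 12 mitotic kinesins were lower (median -1.08), and 9 of 13 axonal kinesins were higher again with 1 lower (median 1.25). Medians over all tested genes were 0.18 and 0.11 in these steps, which share the NPC libraries, and the difference between the steps was not tested.

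Counts of the step from NPC to NC changed most when a library was left out. Without NPC replicate 1, 2 of the 9 mitotic and 2 of the 9 axonal calls were made, with 309 calls over all genes in place of 5123, and without NPC replicate 2 there were 4 and 7, with 1276 over all genes. A scaling by median of ratios, which brings the medians over all genes to -0.02, 0.04 and 0.04 for the steps to NPC, from NPC to NC and over the whole course, gave 7 mitotic kinesins lower in NPC in place of 3 (Kif11, Kif14, Kif22 and Kif2c were the further ones), and 15 members higher and 10 lower there. Over all genes it gave 4254 higher and 3910 lower in NPC, where TPM as deposited gave 5268 and 2832. For NC against mESC it gave 6242 and 5742 in place of 7656 and 4462, and 18 members higher and 17 lower in place of 23 and 15. Quantile normalization turned the balance of this contrast, with 5565 genes higher and 6234 lower and 17 members each way, and FPKM gave 5597 and 5239 genes and 19 and 17 members. For NC against NPC quantile normalization gave 2540 genes higher and 2790 lower in place of 3079 and 2044, and 14 members higher and 16 lower in place of 14 and 12. FPKM gave 2239 and 2686 genes there, and median of ratios 2669 and 2195. Mitotic kinesins called lower in NC than in NPC were 11 by median of ratios and 12 by quantile normalization and with FPKM, in place of 9.

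**Figure D2:**
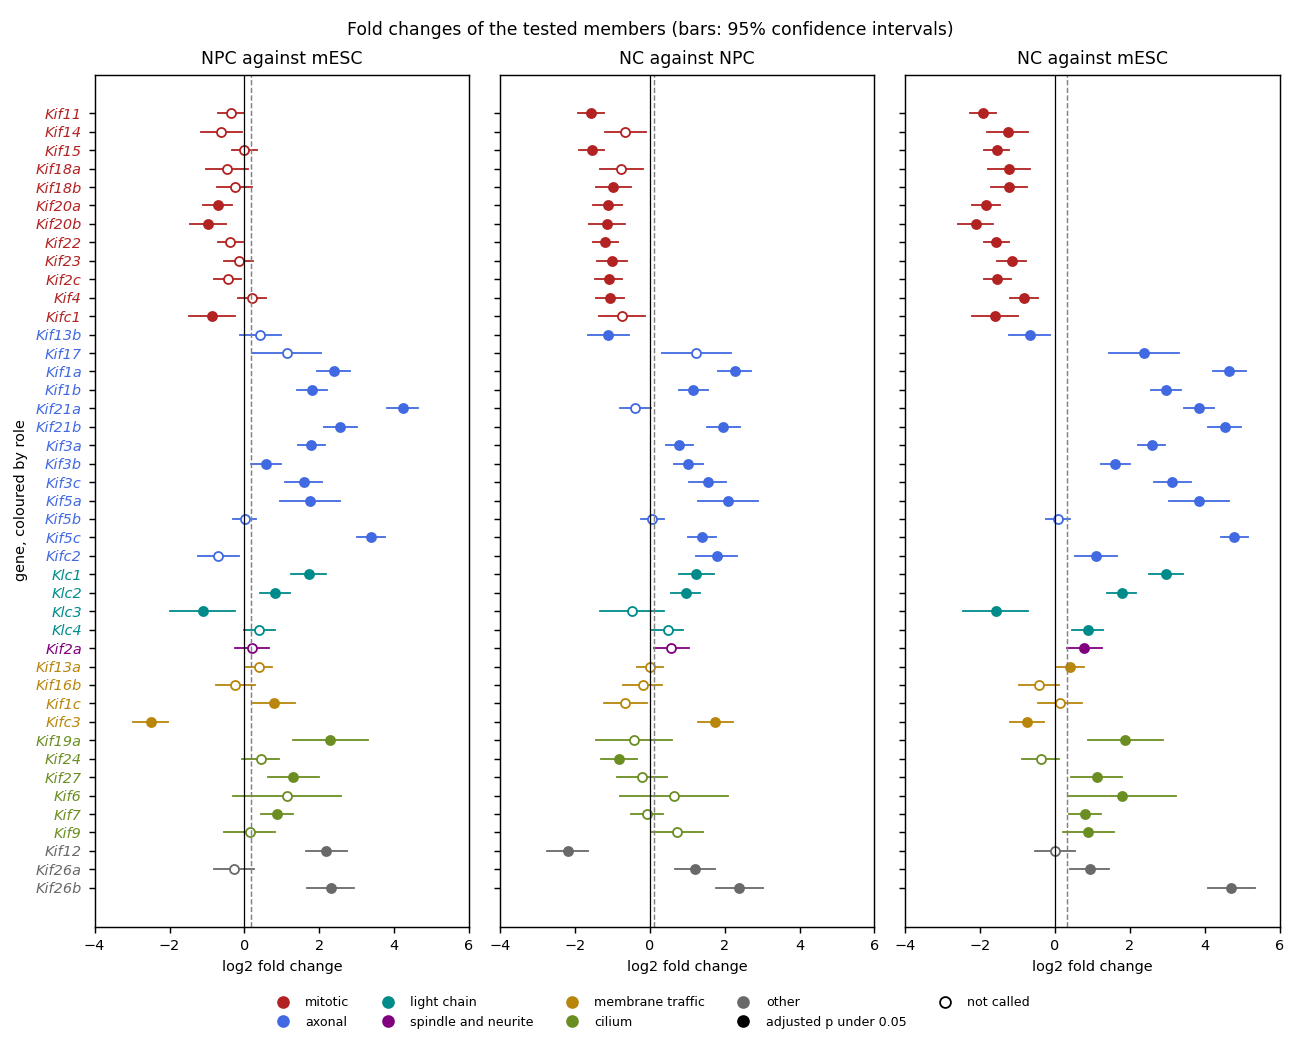
Points give the log2 fold change of each of the 43 tested members in 3 contrasts, bars its 95% confidence interval, filled points an adjusted p under 0.05, and the dashed line the median over all tested genes. In the panel of NC against mESC all 12 mitotic points are filled and left of 0, and 11 of 13 axonal points are filled and right of 0.

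Among the motors that build the bipolar spindle, Kif11 and Kif15 fell from NPC to NC. Kif11 (Eg5), a kinesin-5 that slides antiparallel microtubules apart and so separates the spindle poles, lies on chromosome 19 from 37376403 to 37421859 in mm10, the build of the tables. It stood at 79.1 and 88.5 TPM in mESC, 68.5 and 62.2 TPM in NPC and 20.3 and 22.2 TPM in NC. The fall from NPC to NC was 1.57 on the log2 scale (fold change -1.57, SE 0.15, limma adjusted p = 0.00308), and Kif11 was not called between mESC and NPC with TPM as deposited (-0.35, adjusted p = 0.101). It was called lower in NPC by median of ratios (-0.59, adjusted p = 0.0265) and with FPKM (-0.45, adjusted p = 0.0455). Kif15, a kinesin-12 that can share the work of Kif11 on the spindle, had nearly the same level in mESC and NPC. It had 56.8 and 55.0 TPM in mESC, 56.3 and 55.2 TPM in NPC and 17.7 and 19.0 TPM in NC, so that mESC and NPC overlapped and both NC libraries lay far below. Its log2 fold change was 0.00 from mESC to NPC (95% interval -0.34 to 0.33) and -1.55 from NPC to NC (adjusted p = 0.00299). These 2 genes were the mitotic kinesins whose calls from NPC to NC held without each library in turn. Kifc1, a kinesin-14 that walks to the minus end and focuses spindle poles, stood at 194 and 152 TPM in mESC, 89.9 and 99.5 TPM in NPC and 43.3 and 72.2 TPM in NC. It was lower in NC than in mESC (log2 fold change -1.60, adjusted p = 0.00212). Its value is uncertain, because Kifc5b, a gene outside the symbol rule, matches it at 97.9% of 2326 aligned transcript bases. The tables list Kifc5b at 86.2 and 63.8 TPM in mESC and 21.1 and 31.0 TPM in NC.

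Chromokinesins bind chromosome arms and push them towards the spindle equator. Kif22 (Kid; chromosome 7, 127027732 to 127042420) had 167 and 179 TPM in mESC, 141 and 126 TPM in NPC and 54.2 and 61.5 TPM in NC. The stages did not overlap, and the log2 fold change was -1.57 (SE 0.14, adjusted p = 0.000187) over the whole course and -1.19 (adjusted p = 0.0038) from NPC to NC. Kif22 was called lower in NPC than in mESC only by median of ratios (adjusted p = 0.0190) and with FPKM (0.0315). Kif4, the other chromokinesin, which also works at the spindle midzone, was the mitotic member least changed by NC. It stood at 40.2 and 40.5 TPM in mESC, 49.0 and 44.9 TPM in NPC and 20.5 and 23.8 TPM in NC. Both NPC libraries lay above both mESC libraries, but the difference was not called (0.21, adjusted p = 0.32), and scaled by median of ratios it was -0.02. From NPC to NC Kif4 fell by 1.05 (fold change -1.05, adjusted p = 0.00661), and over the whole course by 0.84 (fold change -0.84, adjusted p = 0.0039). The calls of Kif22 and Kif4 from NPC to NC were lost without NPC replicate 1 (adjusted p = 0.0577 and 0.0835), and that of Kif4 also without NPC replicate 2 (0.0568). The gene model of Kif4 shares 832 bases with Pdzd11 on the opposite strand, and without a stated strand setting reads from this shared stretch cannot be told apart.

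Motors that act on the plus ends of microtubules were all lower in NC than in mESC. Kif2c (MCAK), a depolymerase that corrects faulty attachments at the centromere, had 106 and 114 TPM in mESC, 87.3 and 73.7 TPM in NPC and 34.9 and 39.0 TPM in NC (NC against mESC -1.54, adjusted p = 0.000275). Its early step was called under 3 of the 8 other settings, with an adjusted p of 0.0161 by median of ratios. Kif18a, which damps the movements of chromosomes on the spindle, had 26.2 and 31.3 TPM in mESC, 24.1 and 17.3 TPM in NPC and 10.4 and 13.1 TPM in NC. It was called over the whole course (-1.22, adjusted p = 0.0045) but, with TPM as deposited, in neither step (adjusted p of 0.16 and 0.0581). Kif18a was called in the later step by quantile normalization and with FPKM, as were all 12 mitotic kinesins tested. Kif18b, its relative at astral microtubules, had 44.2 and 49.0 TPM in mESC and 16.2 and 22.7 TPM in NC (-1.23, adjusted p = 0.00212). A gene model on the opposite strand, Gm26668 at 1.33 to 4.24 TPM, covers 19596 bases of it, which is its whole length.

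Of the 4 motors of cytokinesis, Kif20a and Kif20b were called lower in both steps, Kif23 in the later step, and Kif14 in neither step but over the whole course. Kif20a (MKLP2), which takes the chromosomal passenger complex to the midzone, stood at 127 and 164 TPM in mESC, 88.5 and 86.0 TPM in NPC and 39.9 and 39.2 TPM in NC. Its gene model shares 2315 bases with Cdc23 on the opposite strand, listed at 77.0 to 87.7 TPM and so above Kif20a in NC, and the values may be shared. Kif20a fell in both steps, by 0.72 (fold change -0.72, adjusted p = 0.0126) and by 1.12 (fold change -1.12, adjusted p = 0.00599). Kif20b, which acts in abscission, was the mitotic kinesin with the largest change. It went from 43.6 and 53.8 TPM in mESC to 26.7 and 21.7 TPM in NPC and 9.65 and 11.1 TPM in NC. Its log2 fold changes were -0.98 (adjusted p = 0.00906), -1.15 (adjusted p = 0.0103) and, over the whole course, -2.12 (SE 0.20, adjusted p = 0.000237). Kif23 (MKLP1), the motor of centralspindlin, kept its level into the progenitors, with 75.0 and 65.5 TPM in mESC, 68.3 and 57.8 TPM in NPC and 28.5 and 33.1 TPM in NC. Its mESC and NPC libraries overlapped (-0.16, adjusted p = 0.499), and the later step was -1.01 (adjusted p = 0.00873). Without NPC replicate 1 the later step was not called for Kif20a, Kif20b or Kif23 (adjusted p = 0.0746, 0.105 and 0.096), nor without NPC replicate 2 (0.0558, 0.0572 and 0.0535). Kif14, a midbody motor, had 23.7 and 20.8 TPM in mESC, 12.2 and 16.4 TPM in NPC and 7.81 and 9.50 TPM in NC, and was called over the whole course (-1.27, adjusted p = 0.00338). Its stages did not overlap, and its steps were of like size, -0.61 (adjusted p = 0.0721) and -0.66 (adjusted p = 0.0786). Both steps of Kif14 were called by median of ratios (0.0188 and 0.0482), by quantile normalization (0.0157 and 0.0289) and with FPKM (0.0324 and 0.0359). Whether the cytokinesis motors fell more in NPC than the spindle motors was not tested. Of the 3 mitotic calls in NPC, those of Kif20a and Kif20b held under all 8 other settings and without 2 of the 4 libraries. That of Kif20a was lost without NPC replicate 1 (adjusted p = 0.0801) or NPC replicate 2 (0.0993), and that of Kif20b without mESC replicate 2 (0.0603) or NPC replicate 2 (0.0893). The call of Kifc1 was lost without each of the 4 libraries in turn (adjusted p from 0.102 to 0.205) and under 3 of the 8 other settings, quantile normalization among them (0.052).

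Promoter sequences are given for these genes because mitotic genes are known to share a short element, the cell cycle genes homology region (CHR), with CCAAT boxes upstream of it. Sequences are RefSeq promoter windows of GRCm38.p6, 250 bases before to 50 after the annotated start, which were found for 35 of the 44 members (12 mitotic and 8 axonal). The CHR was searched as TTTGAA or TTCGAA and the other motif as CCAAT, both on either strand, and no 2 matches of different motifs overlapped in a member's window. The 60 bases before the start of Kif11 (chr19:37376322-37376381, plus strand) and Kif22 (chr7:127042421-127042480, minus strand) are set beside those of Kif5c (chr2:49619226-49619285, plus strand) and Kif1a (chr1:93101875-93101934, minus strand), 2 axonal genes that rose in both steps. They are written 5′ to 3′ on the strand of the gene, with the matches in capitals (TTCAAA is TTTGAA read on the other strand, and ATTGG is CCAAT).
Kif11: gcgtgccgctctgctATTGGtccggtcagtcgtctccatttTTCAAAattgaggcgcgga
Kif22: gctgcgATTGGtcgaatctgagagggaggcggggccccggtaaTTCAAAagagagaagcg
Kif5c: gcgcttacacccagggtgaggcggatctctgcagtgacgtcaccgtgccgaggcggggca
Kif1a: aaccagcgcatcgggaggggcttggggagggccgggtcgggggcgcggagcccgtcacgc

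In Kif11 the CHR match ran from 19 to 14 bases before the start and the CCAAT match from 45 to 41 bases before it. Kif22 had nearly the same layout, with matches 17 to 12 and 54 to 50 bases before the start. These 2 were the only ones of 12 mitotic windows with both motifs in the 100 bases before the start. The Kif5c and Kif1a stretches held neither motif. A further 6 mitotic kinesins had a CHR match within 30 bases of the annotated start, shown here in stretches of 30 bases with the matches in capitals (Kif15 chr9:122951050-122951079, plus strand; Kif18b chr11:102925104-102925133, minus strand; Kif20b chr19:34922353-34922382, plus strand; Kif23 chr9:61946780-61946809, minus strand; Kif4 chrX:100626072-100626101, plus strand; Kifc1 chr17:33890615-33890644, minus strand).
Kif15: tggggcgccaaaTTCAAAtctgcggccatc
Kif18b: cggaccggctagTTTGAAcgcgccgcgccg
Kif20b: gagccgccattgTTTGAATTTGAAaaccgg
Kif23: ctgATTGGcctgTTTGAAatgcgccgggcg
Kif4: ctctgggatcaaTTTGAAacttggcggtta
Kifc1: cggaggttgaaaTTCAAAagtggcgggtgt

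Kif20b carried the match as a tandem pair, from base 8 to base 19 after the start. In the 250 bases before the start a CHR match stood in 5 of 12 mitotic windows (41.7%), 1 of 8 axonal windows (12.5%) and 19.6% of all 27025 genes in the table. CCAAT stood in 8 of 12 mitotic (66.7%), 3 of 8 axonal (37.5%) and 37.5% of all genes. Both motifs stood together in 3 of 12 mitotic windows (25%), 0 of 8 axonal windows and 7% of all genes. In the 100 bases before the start they did so in 2 of 12 mitotic (16.7%), 0 of 8 axonal and 1.36% of all genes. Since several matches lay just after the start, the 30 bases on either side of it were counted as well, a window chosen after the matches had been seen. There 8 of 12 mitotic kinesins (66.7%), none of 8 axonal kinesins and 3.64% of all genes had a CHR match. Of the 4 mitotic kinesins outside these 8, Kif2c and Kif14 had matches 103 and 228 bases before the start, and Kif18a and the untested Kif2b had none in the window. Outside the mitotic group Kif24 and Kif26b had a match within 30 bases of the start, and 1 of the 2 windows of Kif1a, at an internal start 19471 bases from that of the tables, had a match 44 bases before it. For 30 of the 35 members a RefSeq start lay within 100 bases of the gene's start in the tables; among mitotic genes Kif2c (3867 bases away), Kif14 (1505) and Kif4 (328) did not. A match is a stretch of letters, and binding at it was not measured.

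**Figure D3:**
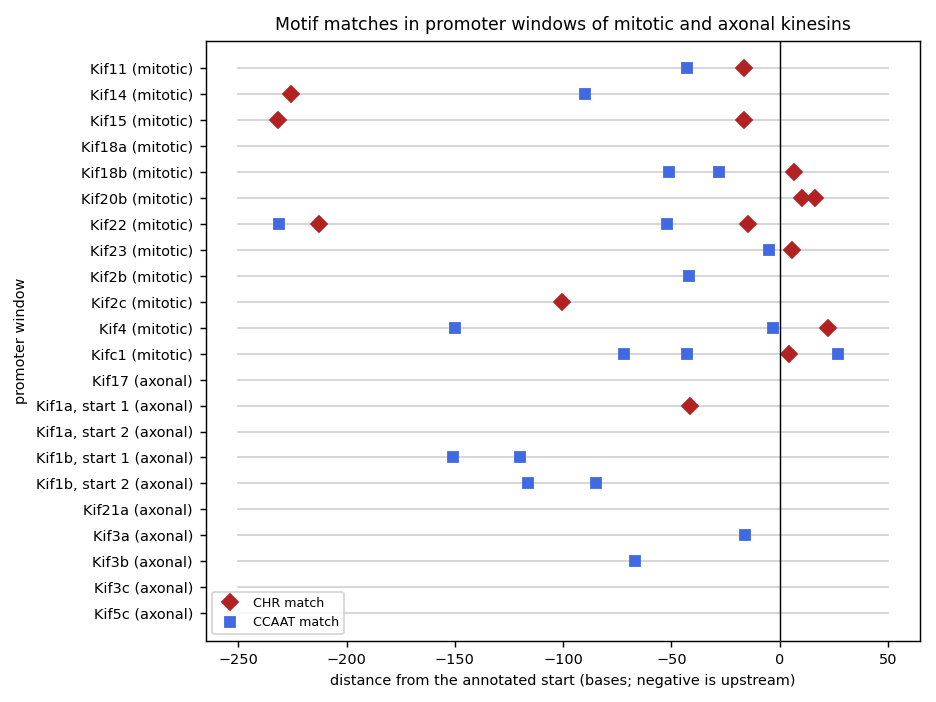
Each line is a RefSeq promoter window of a mitotic or axonal kinesin, from 250 bases before to 50 after the annotated start at 0; diamonds are CHR matches and squares CCAAT matches on either strand, and a gene with 2 annotated starts has 2 lines. Diamonds lie within 30 bases of the start in 8 of 12 mitotic windows and in none of the axonal ones.

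Among the axonal motors the heavy chains of conventional kinesin, which carries mitochondria, vesicles and neurofilament proteins towards axon terminals, changed in make-up. Kif5b, the heavy chain found in most tissues, had 83.6 and 82.2 TPM in mESC, 86.0 and 80.2 TPM in NPC and 82.6 and 92.3 TPM in NC. All stages overlapped, and the log2 fold change of NC against mESC was 0.07 with a 95% interval from -0.24 to 0.39. Its sign turned under other scalings, to -0.24 by median of ratios. Kif5c, a neuronal heavy chain (chromosome 2, 49619298 to 49774778), had 10.4 and 8.41 TPM in mESC, 101 and 114 TPM in NPC and 283 and 286 TPM in NC. The stages were far apart, and its log2 fold change over the whole course, 4.79 (SE 0.15, adjusted p = 1.02e-05), was the largest in the family with a pseudocount of 1. With a pseudocount of 0.1, which shrinks scarce genes less, Kif26b came first (7.09, against 4.91 for Kif5c). Most of the change of Kif5c, 3.39 (adjusted p = 3.79e-05), came before NPC. Kif5a, the heavy chain linked to neurofilament transport, had 13.3 and 6.10 TPM in mESC, 28.8 and 37.6 TPM in NPC and 135 and 151 TPM in NC. It rose in both steps, by 1.75 (adjusted p = 0.00699) and 2.09 (adjusted p = 0.00806), the former not called without NPC replicate 2 (adjusted p = 0.0649) and the latter neither without NPC replicate 1 (0.0827) nor without NC replicate 2 (0.0582).

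Summed over the 3 heavy chains, TPM went from 102 ± 7.45 in mESC to 223 ± 11.6 in NPC and 515 ± 20.8 in NC (SD, n = 2). The share of Kif5b in this sum was 81.5% ± 4.98 in mESC, 37.3% ± 3.79 in NPC and 17.0% ± 0.65 in NC. Kif5c took 9.18% ± 0.68, 47.9% ± 1.77 and 55.3% ± 1.80, and Kif5a 9.35% ± 4.30, 14.8% ± 2.02 and 27.8% ± 1.15. Kif5b thus kept its level while its share became smaller. Light chains, which bind cargo to these heavy chains, grew alongside. Klc1, the neuronal light chain and the most abundant member of the family in NPC and NC, had 92.8 and 66.4 TPM in mESC, 239 and 283 TPM in NPC and 650 and 586 TPM in NC. Its log2 fold changes were 1.72 (adjusted p = 0.000896) and 1.24 (adjusted p = 0.00752), the latter not called without NPC replicate 1 (adjusted p = 0.0835). Its gene model shares 4653 bases with Xrcc3 on the opposite strand, listed at 30.7 to 50.8 TPM. Klc2 had 37.8 and 32.3 TPM in mESC, 56.9 and 68.1 TPM in NPC and 115 and 130 TPM in NC, and was higher in NC than in mESC by 1.78 (adjusted p = 0.00022). Klc4 had 34.3 and 26.0 TPM in mESC and 56.0 and 55.5 TPM in NC, a log2 fold change of 0.88 (adjusted p = 0.00503), with neither step called. Klc3, known from testis, went the other way, with 27.0 and 16.8 TPM in mESC, 9.81 and 8.78 TPM in NPC and 8.996 and 4.50 TPM in NC. It was lower in NC (log2 fold change -1.59, adjusted p = 0.00864), which without mESC replicate 1 had an adjusted p of 0.0795. It shares 1258 bases with Ercc2 on the opposite strand, which the tables list at 37.5 to 57.0 TPM. Among the 4 light chains the share of Klc1 rose from 47.6% ± 1.01 to 70.0% ± 1.32 and 76.9% ± 1.94, a description for which no test was made.

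**Figure D4:**
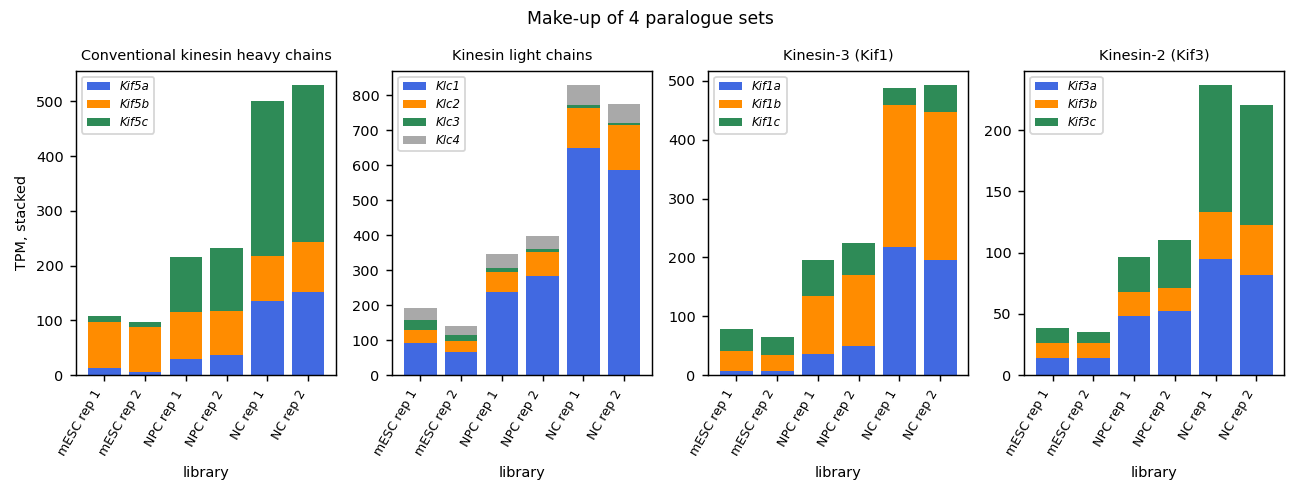
Stacked bars give the TPM of each paralogue in each library for the Kif5 heavy chains, the light chains, the Kif1 motors and the Kif3 motors; the vertical scales differ. In the Kif5 panel the Kif5b segment keeps its height, 80.2 to 92.3 TPM, while Kif5a and Kif5c grow above and below it.

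Kinesin-3 motors carry the precursors of synaptic vesicles. Kif1a (chromosome 1, 93015464 to 93101951), the main motor of that transport, had 7.57 and 6.93 TPM in mESC, 36.3 and 48.8 TPM in NPC and 217 and 196 TPM in NC. Its increase was nearly equal in the 2 steps, 2.39 (adjusted p = 0.000221) and 2.27 (adjusted p = 0.00293), and its calls held under each other setting and without each library. Kif1b, whose products carry mitochondria or synaptic vesicle precursors, started higher. It had 33.8 and 27.7 TPM in mESC, 98.5 and 121 TPM in NPC and 242 and 251 TPM in NC, a log2 fold change of 2.97 over the whole course (SE 0.16, adjusted p = 3.7e-05). Kif1c, a motor of vesicles outside the nervous system as well, had 36.3 and 29.96 TPM in mESC, 61.3 and 54.1 TPM in NPC and 28.8 and 45.5 TPM in NC. Only its NPC libraries stood apart, and the call of NPC against mESC (0.79, adjusted p = 0.04) was lost under 5 of the 8 other settings and without each of the 4 libraries in turn. In the sum of the 3 the share of Kif1a went from 10.2% to 20.1% and 42.2%, and that of Kif1c from 46.6% to 27.7% and 7.57%. Kif13b, a kinesin-3 linked to the axonal transport of phosphoinositides, was the axonal member lower in NC. It had 29.9 and 22.3 TPM in mESC, 31.9 and 38.8 TPM in NPC and 13.8 and 18.0 TPM in NC. It was called from NPC to NC (-1.11, adjusted p = 0.0169) and over the whole course (-0.68, adjusted p = 0.0395). The former was lost without 3 of the 4 libraries (adjusted p up to 0.129, without NPC replicate 2), and the latter without mESC replicate 1 (0.178) or NC replicate 1 (0.164) and under 3 other settings, the replicate number as a block among them (0.0595).

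The trimeric form of kinesin-2 joins Kif3a and either Kif3b or Kif3c with the accessory subunit Kifap3. It moves cargo in axons and, as the anterograde motor of intraflagellar transport, in cilia. Kif3a had 13.7 and 14.1 TPM in mESC, 48.4 and 52.4 TPM in NPC and 94.8 and 81.4 TPM in NC. Kif3b had 12.7 and 12.0, 19.1 and 18.7, and 38.0 and 41.4 TPM in the same order. Kif3c, the subunit typical of neurons, had 11.9 and 9.41 TPM in mESC, 28.9 and 39.4 TPM in NPC and 104 and 97.3 TPM in NC, and shares 2617 bases with 1110002L01Rik on the opposite strand, listed at 10.2 to 15.4 TPM. All 3 were near each other in mESC and spread apart later, with Kif3b lowest in NPC and NC. Their log2 fold changes of NC against mESC were 2.58 for Kif3a (adjusted p = 4.37e-05), 1.61 for Kif3b (adjusted p = 0.000335) and 3.13 for Kif3c (adjusted p = 6.02e-05). The early step of Kif3b (0.58, adjusted p = 0.0315) was not called under 4 other settings or without any of the 4 libraries. Kifap3 went from 31.5 and 27.5 TPM in mESC to 39.6 and 47.4 TPM in NPC and 94.9 and 90.3 TPM in NC (NC against mESC 1.62, adjusted p = 0.000283). Kif17, a dendritic kinesin-2 that carries glutamate receptors, was scarce. It had 0.85 and 0.24 TPM in mESC, 1.86 and 2.82 TPM in NPC and 9.55 and 4.84 TPM in NC (2.37, SE 0.39, adjusted p = 0.00232), and it shares 10898 bases on the same strand with Sh2d5, listed at 2.49 to 16.6 TPM.

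The kinesin-4 pair Kif21a and Kif21b, which regulate microtubule growth in axons and dendrites, parted after NPC. Kif21a (chromosome 15, 90933276 to 91049948) had 4.03 and 4.27 TPM in mESC, 85.9 and 106 TPM in NPC and 76.6 and 68.9 TPM in NC. Its increase of 4.23 from mESC to NPC (SE 0.17, adjusted p = 2.99e-05) was the largest of the family in that step with a pseudocount of 1. With 0.1 it was 4.49, just above Kif26b (4.47) and below Kif12, a gene listed at 0 in mESC. From NPC to NC it was not called (-0.39, 95% interval -0.80 to 0.02). Kif21b had 7.93 and 6.60 TPM in mESC, 41.7 and 54.8 TPM in NPC and 188 and 192 TPM in NC, and it rose in both steps, by 2.57 (adjusted p = 0.000168) and 1.97 (adjusted p = 0.00308). Kif21a was thus the more abundant of the pair in both NPC libraries and the less abundant in both NC libraries. Kifc2, a minus-end motor of neurons, had a dip in NPC, with 25.3 and 19.9 TPM in mESC, 11.9 and 15.3 TPM in NPC and 56.5 and 42.4 TPM in NC. From NPC to NC it rose by 1.78 (adjusted p = 0.00487), not called without NPC replicate 1 (0.0592). The dip was not called with TPM as deposited (-0.69, adjusted p = 0.0524) but was under 4 of the 8 other settings, with an adjusted p of 0.0173 by median of ratios.

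**Figure D5:**
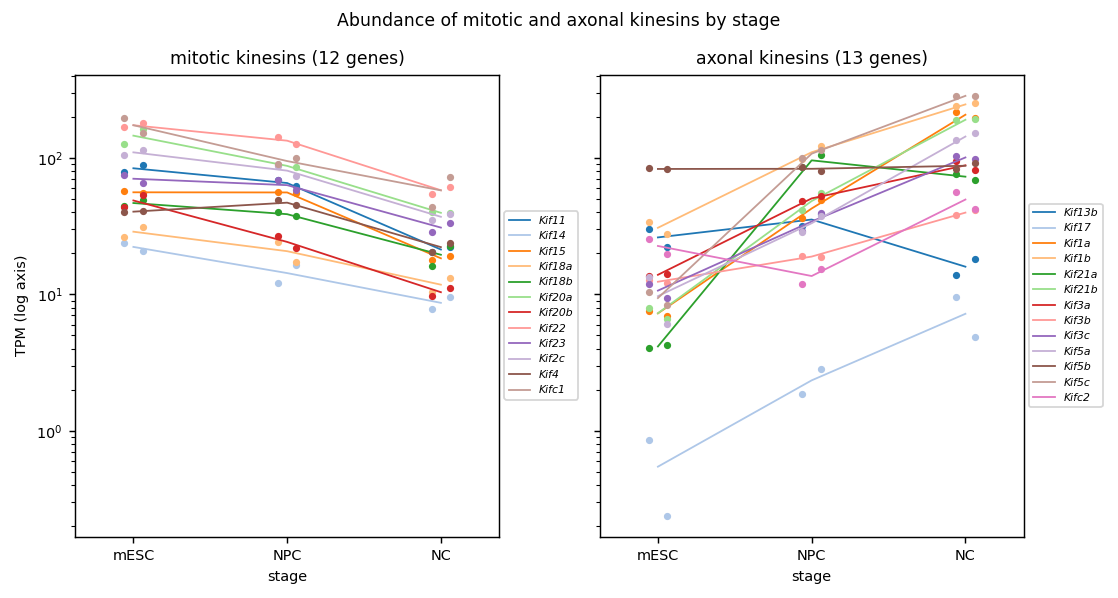
Points give the TPM of each library (log axis) for 12 mitotic kinesins (left) and 13 axonal kinesins (right), and lines join the means of the 2 libraries of each stage. Mitotic lines all end lower in NC than in mESC, and in the axonal panel Kif5b runs flat at 80.2 to 92.3 TPM, Kif21a levels off after NPC and Kif13b falls.

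Kif2a, a depolymerase of spindle poles that also prunes axon branches, had 40.0 and 28.3 TPM in mESC, 39.4 and 38.3 TPM in NPC and 55.7 and 61.2 TPM in NC. Only the NC libraries stood apart. It was called in NC against mESC (0.78, adjusted p = 0.0129), though with an adjusted p of 0.0515 by median of ratios and 0.0693 without NC replicate 2. It shares 1229 bases with Dimt1 on the opposite strand, listed at 13.2 to 29.0 TPM. Its relative Kif2c, which works at centromeres, fell over the same course, as given above.

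Among motors of membrane traffic Kifc3, a minus-end motor of Golgi and cell junctions, had the sharpest change. It stood at 45.2 and 37.1 TPM in mESC, 7.01 and 5.86 TPM in NPC and 24.7 and 23.3 TPM in NC. It fell by 2.50 (log2 fold change -2.50, SE 0.19, adjusted p = 0.000215) and rose again by 1.75 (adjusted p = 0.00354), and both calls held in each setting and without each library. NC remained below mESC (-0.75, adjusted p = 0.0147), a call lost without mESC replicate 1 (0.0676) or NC replicate 2 (0.0579). Kif13a, a motor of recycling endosomes, had 30.02 and 30.5 TPM in mESC, 38.5 and 42.1 TPM in NPC and 39.0 and 42.1 TPM in NC. Both later stages lay above mESC, but the call of NC (0.41, adjusted p = 0.0469) was lost under 5 of the 8 other settings and without each of the 4 libraries. Kif16b, a motor of early endosomes, ranged from 8.76 to 14.2 TPM and was called in no contrast with TPM as deposited, though it was lower in NC than in mESC by median of ratios (-0.72, adjusted p = 0.0215), by quantile normalization (0.00511) and with FPKM (0.0255).

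Of the 6 ciliary kinesins 3 were higher in NPC than in mESC, where 26.0% of all tested genes were, and 5 in NC than in mESC, where 37.8% were. None of these 8 calls held under every other setting and without every library, and levels were low. Kif6, Kif19a and Kif27 lay under 1 TPM in both mESC libraries and passed the filter through later stages. A call of these genes against mESC could hardly be other than higher, so the counts are no support for a share above that of all genes. Kif7, a regulator of Hedgehog signalling at the tip of the primary cilium, had 10.3 and 9.93 TPM in mESC, 20.0 and 18.9 TPM in NPC and 19.0 and 17.7 TPM in NC. It was higher in NPC than in mESC by 0.88 (adjusted p = 0.00886), a call lost with quantile normalization and without either NPC replicate (0.0808 and 0.0704). In NC it was higher by 0.80 (adjusted p = 0.00819), with 0.0507 by median of ratios and 0.268 by quantile normalization. Kif27, its close relative linked to motile cilia, had 0.17 and 0.37 TPM in mESC, 2.05 and 2.23 TPM in NPC and 1.26 and 2.29 TPM in NC, called in both later stages against mESC (1.31, adjusted p = 0.0113, and 1.11, adjusted p = 0.0139). Kif19a, which trims motile cilia, had 0.19 and 0.21 TPM in mESC, 3.21 and 7.25 TPM in NPC and 4.80 and 2.33 TPM in NC, called in both as well (2.30, adjusted p = 0.00598, and 1.88, adjusted p = 0.00837). The calls of Kif19a were lost without either mESC replicate (adjusted p from 0.0587 to 0.0695). The call of Kif27 in NPC was lost without 3 of the 4 libraries, mESC replicate 1 (0.0593), NPC replicate 1 (0.0554) and NPC replicate 2 (0.0705), and that in NC without mESC replicate 1 (0.0651) and by quantile normalization (0.153). A gene model on the opposite strand, Gm26555 at 0 to 1.21 TPM, shares 11630 bases with Kif27. Kif24, a centriolar kinesin that holds back cilium formation, had 17.1 and 16.0 TPM in mESC, 22.6 and 23.0 TPM in NPC and 10.7 and 14.5 TPM in NC. It was lower in NC than in NPC (-0.82, adjusted p = 0.0308), and this was lost under 2 other settings, the replicate number as a block among them (0.0532), and without 3 of the 4 libraries (up to 0.177, without NPC replicate 1). Against mESC Kif24 was lower in NC by median of ratios (0.0195), by quantile normalization (0.00967) and with FPKM (0.0258), but not with TPM as deposited. Kif9 and Kif6, both linked to motile cilia, were called in NC against mESC alone. Each call was lost under 4 of the 7 other settings in which the gene was tested and without 3 of the 4 libraries. Kif9 had 1.62 and 1.66 TPM in mESC, 1.68 and 2.18 TPM in NPC and 3.05 and 4.86 TPM in NC (0.88, adjusted p = 0.0338). Kif6 had 9.24 and 1.63 TPM in the NC libraries, so that its value rests on NC replicate 1, without which the log2 fold change was 0.79 (adjusted p = 0.0596) in place of 1.78. Markers of multiciliated cells (7 genes) summed to 10.3 to 19.6 TPM over all libraries, with Mcidas at 0 in each.

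The remaining 3 kinesins each had a profile of their own. Kif26b, an atypical kinesin without motor activity known from kidney development (chromosome 1, 178529125 to 178939200), had 0.12 and 0.09 TPM in mESC, 3.65 and 5.42 TPM in NPC and 28.2 and 27.4 TPM in NC. It rose in both steps, by 2.31 (adjusted p = 0.000938) and 2.40 (adjusted p = 0.00351), the latter with an adjusted p of 0.0514 without NPC replicate 1. Kif26a, the other atypical member, had 6.02 and 6.36 TPM in mESC, 4.84 and 4.98 TPM in NPC and 11.6 and 13.6 TPM in NC (NC against NPC 1.20, adjusted p = 0.0118), a rise not called without either NPC replicate (0.103 and 0.0846). Kif12, described in epithelia of kidney and liver, was listed at 3.78 and 3.36 TPM in the NPC libraries and at 0 in all 4 libraries of mESC and NC. It was called in both steps (limma adjusted p = 0.000631 and 0.00333), and no fold is given against stages listed at 0. Kif12 passed the filter through the NPC libraries alone. Its calls could hardly be other than higher and then lower, so they are no independent support for a peak in NPC. Endoderm markers (6 genes) were also highest in NPC, at 116 to 170 TPM against 20.4 to 86.2 TPM in the other stages, and their part in the Kif12 value was not tested.

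Partners of these motors were taken from lists of genes outside the symbol rule, to be read against all tested genes, of which 37.8% were higher and 22.1% lower in NC than in mESC, 26.0% and 14.0% in NPC than in mESC, and 15.2% and 10.1% in NC than in NPC. All these lists were chosen with earlier results of these data known, so a share unlike that of all genes is description and not independent support. Their counts were not repeated without single libraries, on which calls from NPC to NC depend most, as given above. Of 23 mitotic partners, such as kinases, cyclins and checkpoint proteins, 20 were lower and 3 higher in NC than in mESC (median -1.48). In NPC 9 of them were lower and 3 higher than in mESC (median -0.24), and in NC 20 were lower and 0 higher than in NPC (median -1.19). Cenpe, the centromeric kinesin-7 whose symbol is outside the rule, had 41.1 and 40.8 TPM in mESC, 49.4 and 32.1 TPM in NPC and 17.2 and 22.0 TPM in NC. Like Kif15 and Kif23 it overlapped between mESC and NPC (-0.04, adjusted p = 0.922) and was lower in NC than in NPC (-0.997, adjusted p = 0.0269). Birc5, a subunit of the chromosomal passenger complex that Kif20a carries, fell in both steps (-0.72, adjusted p = 0.0217, and -1.62, adjusted p = 0.00371). The checkpoint kinase Bub1b and the cyclin Ccnb1 also fell in both steps, and over the whole course by 2.30 and 2.21 (fold changes -2.30 and -2.21, adjusted p = 4.26e-05 and 6.63e-05).

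Of 27 genes for adaptors and regulators that tie kinesins to cargo, 21 (77.8%) were higher and 0 lower in NC than in mESC (median 2.30), against 37.8% and 22.1% of all tested genes. In the early step 16 were higher and 1 lower, against 26.0% and 14.0% of all genes, and in the later one 17 and 0, against 15.2% and 10.1%. Several of the adaptors called higher against mESC, Lin7a among them, lay under 1 TPM in both mESC libraries and passed the filter through later stages. A call of these genes against mESC could hardly be other than higher, so they add no support for a share above that of all genes. Fez1, an adaptor of conventional kinesin, had 3.35 and 4.85 TPM in mESC, 86.5 and 95.5 TPM in NPC and 283 and 145 TPM in NC (NC against mESC 5.33, adjusted p = 4.76e-05). Mapk8ip2, a scaffold that binds light chains, had 3.66 and 2.93 TPM in mESC and 85.9 and 98.0 TPM in NC (4.44, adjusted p = 1.8e-05). Lin7a, part of the complex that joins Kif17 to receptors, had 0 TPM in each mESC library and 39.7 and 34.3 TPM in NC. Of 22 tested genes of dynein and dynactin, the motor of the opposite direction, 18 (81.8%) were higher and 3 lower in NC than in mESC (median 1.21), with Bicd2 (2.16, adjusted p = 9.58e-05), Dync1i2 (1.91, adjusted p = 6.74e-05) and Hook3 (1.85, adjusted p = 0.001) named for size. Of 20 genes of intraflagellar transport, in which Kif3a and Kif3b are the motor, 15 (75%) were higher and 0 lower in NPC than in mESC (median 0.90), against 26.0% and 14.0% of all genes. From NPC to NC only 1 was higher and 1 lower (median -0.06), whereas Kif3a and Kif3b rose in that step by 0.79 (adjusted p = 0.0137) and 1.03 (adjusted p = 0.00806), calls lost without NPC replicate 1 (0.131 and 0.0842) or NPC replicate 2 (0.0889 and 0.0754). Ift22, Ift81 and Dync2h1, the members of this list with the largest change, were higher in NC than in mESC by 1.96, 1.91 and 1.80 (adjusted p = 0.000305, 0.000278 and 0.000613). With 2 libraries per stage no permutation of single values can reach 0.05, so each p above rests on the spread that limma pools over genes, and it measures only the spread between these cultures of a single line.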

How the data were processed

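RNA of 6 libraries was sequenced on an Ion Proton after poly(A) enrichment and depletion of rRNA, per the labels' protocols. The submitters' processing notes list StringTie 2.1.5, STAR 2.7.9a, cutadapt 3.4, FastQC, DESeq2 and R 4.0.3, with the build mm10. Strand setting and annotation release: not given in the sources used here. Per the file headers the tables are StringTie gene abundances, 1 per library. The deposited TPM values, which the authors' tool scales to 1 sum per library, were used for all results. Deposited FPKM values and the deposited coverage (mean depth over exons, not scaled to the library) served as alternatives, and the ratio of coverage to FPKM gave the aligned bases per library (1.57 to 2.27 Gb). The tables hold no read counts, so no counting interval is given, and precision rests on 2 libraries per stage. Between 2 and 9 repeated gene lines per table were summed, none of a member.

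The 20232 genes that reached 1 TPM in 2 or more of the 6 libraries were tested with limma 3.58.1 in R 4.3.3 on log2(TPM + 1), with 1 coefficient per stage, an intensity trend, 3 residual degrees of freedom and Benjamini-Hochberg adjustment, and a threshold of 0.05. The script was tested on simulated data. Alternatives were a pseudocount of 0.1, filters at TPM above 0 and at least 5, median-of-ratios and quantile scaling, FPKM, no trend, the replicate number as a block, and leaving out each library. Deviations of same-numbered libraries correlated at 0.05, -0.07 and -0.08 between stages, so the numbers were not taken to pair them. The members and lists were chosen with earlier results of these data known. All members may be named; from each list of partners up to 3 with the largest change among those called in NC against mESC, plus Cenpe and Kifap3; genes that overlap or resemble a member are named for that alone. All 44 members matched a protein-coding gene of GENCODE vM21 by ID, 30 of them with the same start and end. A comparison of paralogous proteins was not run.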

Additional observations from a re-analysis of the deposited data

How the results depend on the processing

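No called member changed direction under any alternative tried. Of 1011 member fold changes under the other settings, 40 lost and 34 gained a call, and 19 of members not called changed sign. Over the whole course the counts of 12 mitotic kinesins lower and of axonal kinesins higher (10 or 11) stayed within these bounds. In the early step mitotic kinesins called lower were 7 by median of ratios and 7 with FPKM, and 0 to 2 without 1 library. Kifc2 as an axonal kinesin lower in NPC gave a count of 1 with a TPM minimum of 5, by median of ratios, by quantile normalization and with FPKM, in place of 0. Leaving out a library gave 4032 to 6348 genes called in the early step, and in the later step 309 to 3689 genes, 2 to 10 mitotic kinesins lower, 2 to 9 axonal kinesins higher and 0 to 1 lower; the stage left with 1 library is assumed to vary like the others. With TPM above 0 as filter 3166 genes were called in the later step. Axonal kinesins called lower (Kif13b) came to 0 with that filter in the later step, to 0 in NC against mESC with that filter, without the trend and with the replicate block, and to 0 to 1 there without 1 library. With the replicate number as a block 7368, 4247 and 11575 genes were called in the early step, the later step and the whole course, and it changed no count of mitotic or axonal kinesins by over 1.5 times except that of Kif13b. The labels do not say that numbers pair samples.

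Signs that changed were those of values not called, many near 0 but not those of Kif6 (0.65) and Kif19a (-0.42) in the later step. For Kif5b they were -0.24 by median of ratios and -0.10 with FPKM in the early step, -0.0080, -0.058 (quantile) and -0.095 in the later step, and -0.24, -0.058 and -0.20 over the whole course. For Kif13a in the later step they were -0.070, -0.15 and -0.15, and for Kif1c over the whole course -0.18, -0.24 and -0.13. In the early step Kif2a was at -0.032, Kif4 at -0.023 and Kif9 at -0.0093 by median of ratios, with Kif9 at -0.17 by quantile normalization, where Kif12 over the whole course was at -0.0041. Without 1 library the values lay from -0.027 to 0.020 for Kif15, from -0.041 to 0.45 for Kif2a and from -0.047 to 0.053 for Kif5b in the early step. In the later step they lay from -0.054 to 0.072 for Kif13a, from -0.91 to 0.062 for Kif19a, from -0.47 to 0.069 for Kif27, from -0.0070 to 0.15 for Kif5b and from -0.33 to 1.63 for Kif6, and over the whole course from -0.19 to 0.45 for Kif1c and from -0.0041 to 0.15 for Kif5b. The causes were not tested.

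By coverage in place of TPM the share of Kif5a was 17.1% in NPC and 30.9% in NC, that of Kif5b 33.4% and 14.5%, and that of Kif5c 10.1% in mESC. In FPKM the mitotic sum was 485.4, 326.5 and 133.9 and the axonal sum 115.2, 303.8 and 613.3 in mESC, NPC and NC. By median of ratios the mitotic sum in mESC was 1139, and the axonal sum was 269.8 in mESC and 1396 in NC. Mitotic windows with a CHR match were 3 in the 100 bases before the start, and, in windows chosen after seeing the data, 10 from 250 before to 50 after it and 8 within 30 bases of it. In the last of these 4 mitotic windows had CCAAT, and axonal windows with CHR and CCAAT came to 0 and 1. Without read counts the depth behind each value is not known, and 2 libraries per stage limit all comparisons. A comparison of proteins was not run.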
